A study of Rattus norvegicus with 10 samples.

Results

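The facilitative sugar transporters are the Slc2a genes, whose proteins (the GLUT family) let glucose, fructose and related solutes move down their concentration gradient across a membrane. The genes described here are Slc2a1, Slc2a2, Slc2a3, Slc2a4, Slc2a5, Slc2a6, Slc2a8, Slc2a9, Slc2a10 and Slc2a12. They were chosen by name: each is the only gene symbol of a probe set (the group of array probes summarised as 1 value) in the platform annotation. All 10 were found among 18166 named genes, and each had 1 probe set, so no choice between probe sets was needed.

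The values come from 10 Affymetrix arrays of rat testis RNA, 1 array per sample, on the log2 scale. The animals were Zucker rats, in which the fa allele of the leptin receptor gene causes obesity in homozygotes. Obese rats gave 4 arrays of normal testes and 4 of under-developed testes, and lean rats gave 2 arrays of normal testes. All rats were 14 weeks old and labelled as sexually mature. The labels give the model fa/fa and the same treatment text for all 3 groups, lean rats included, so the genotype of the lean rats is not settled, and they do not say if the testes of a group are from different animals. The sample titles call the arrays of each group biological replicates. Because the animals are not told apart, P-values measure only the spread between these samples, which may include testes of the same animal. The number of arrays limits the precision.

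In the testis, glucose is taken up by Sertoli cells, which surround the germ cells, and is passed on largely as lactate to meiotic and later germ cells behind the blood-testis barrier. The Slc2a1 protein (GLUT1) is the basal glucose transporter of Sertoli cells and of many barrier tissues, the Slc2a3 protein (GLUT3) is a high-affinity glucose transporter known from neurons and from germ cells, and the Slc2a8 protein (GLUT8) is a mostly intracellular transporter that is abundant in testis. The Slc2a5 protein (GLUT5) carries fructose, a fuel of sperm, and the Slc2a4 protein (GLUT4) is the insulin-regulated transporter of muscle and fat.

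RefSeq promoter windows of assembly GRCr8 were held for 7 of the 10 genes in the table used here. Those of Slc2a1 and Slc2a8 are shown, because these genes differed in opposite directions in the under-developed testes. Each line gives the 250 bases before the RefSeq start, 5′ to 3′ on the strand of the gene. Slc2a1 lies on the plus strand (chr5:138002272-138002521) and Slc2a8 on the minus strand (chr3:36682135-36682384).
Slc2a1: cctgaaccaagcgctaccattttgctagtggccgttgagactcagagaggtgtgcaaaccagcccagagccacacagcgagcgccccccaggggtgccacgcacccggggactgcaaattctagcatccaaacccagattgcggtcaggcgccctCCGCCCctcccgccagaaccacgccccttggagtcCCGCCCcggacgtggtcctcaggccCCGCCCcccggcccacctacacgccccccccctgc
Slc2a8: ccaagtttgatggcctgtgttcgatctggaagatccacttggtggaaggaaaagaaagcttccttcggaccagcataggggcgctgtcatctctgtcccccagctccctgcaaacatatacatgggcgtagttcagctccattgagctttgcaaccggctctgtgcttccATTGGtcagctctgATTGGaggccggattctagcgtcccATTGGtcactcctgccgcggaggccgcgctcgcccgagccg
Capitals mark matches to 5 motifs searched on both strands, namely TATAAA (the TATA box), GGGCGG (the GC box), CCAAT (the CCAAT box), CACGTG (an E-box) and TGACGTCA (the cAMP response element), with no overlap between matches. The Slc2a1 window holds 3 copies of GGGCGG, all on the opposite strand as CCGCCC, and the Slc2a8 window holds 3 copies of CCAAT, all on the opposite strand as ATTGG. Of 27457 promoter windows of this length, 32.4% held GGGCGG, 34.3% held CCAAT, 13.1% held TATAAA, 5.79% held CACGTG and 1.7% held TGACGTCA. The TATA box, E-box and cAMP response element letters were not in any of the 7 windows. The Slc2a12 window held none of the 5 motifs, and the Slc2a5 window held 1 copy of CCAAT. The RefSeq gene models reach further upstream than the start used, by 72 bases for Slc2a8, 2486 for Slc2a2, 6362 for Slc2a12, 8767 for Slc2a5 and 20306 for Slc2a9. The windows of Slc2a2, Slc2a12, Slc2a5 and Slc2a9 therefore lie within the gene model. So do the Slc2a8 matches that begin 66 and 41 bases before the start. All of these are matches of letters only.

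The under-developed arrays were not alike. Over all named genes, the correlation between any pair of the 6 normal arrays was 0.994 to 0.997. The mean correlation with those 6 arrays was 0.856 for under-developed replicate 1, 0.946 for replicate 2, 0.731 for replicate 3 and 0.995 for replicate 4. Array 4 of the under-developed group thus lay as close to normal testes as they lay to each other, and each result below is given with and without it. The median SD over all genes was 0.35 among under-developed arrays and 0.10 among normal obese arrays.

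In under-developed replicates 1 to 3 the transporter genes split into 3 sets. Slc2a3, Slc2a8 and Slc2a2 were below all 6 normal arrays, Slc2a1, Slc2a4, Slc2a5, Slc2a9 and Slc2a12 were above all 6, and Slc2a6 and Slc2a10 overlapped with them. Over all genes, 26.7% lay below and 28.7% above all 6 normal arrays in these 3 replicates, so such a position was common in these arrays. In replicate 4, 9 of the 10 genes lay within the range of the 6 normal arrays, the exception being Slc2a6. The share of all genes within that range is not given here, and the mean correlation of replicate 4 with those arrays was 0.995. The median absolute log2 difference of the 10 genes from the normal obese mean was 1.17, 0.61, 1.18 and 0.079 in replicates 1 to 4, against 0.53, 0.35, 0.63 and 0.11 over all genes. Replicate 2 was the nearest to normal of replicates 1 to 3 for 9 of the 10 genes, and replicate 3 the farthest for 8. The medians over all genes had the same order, so it is not particular to these genes.

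**Figure D1:**
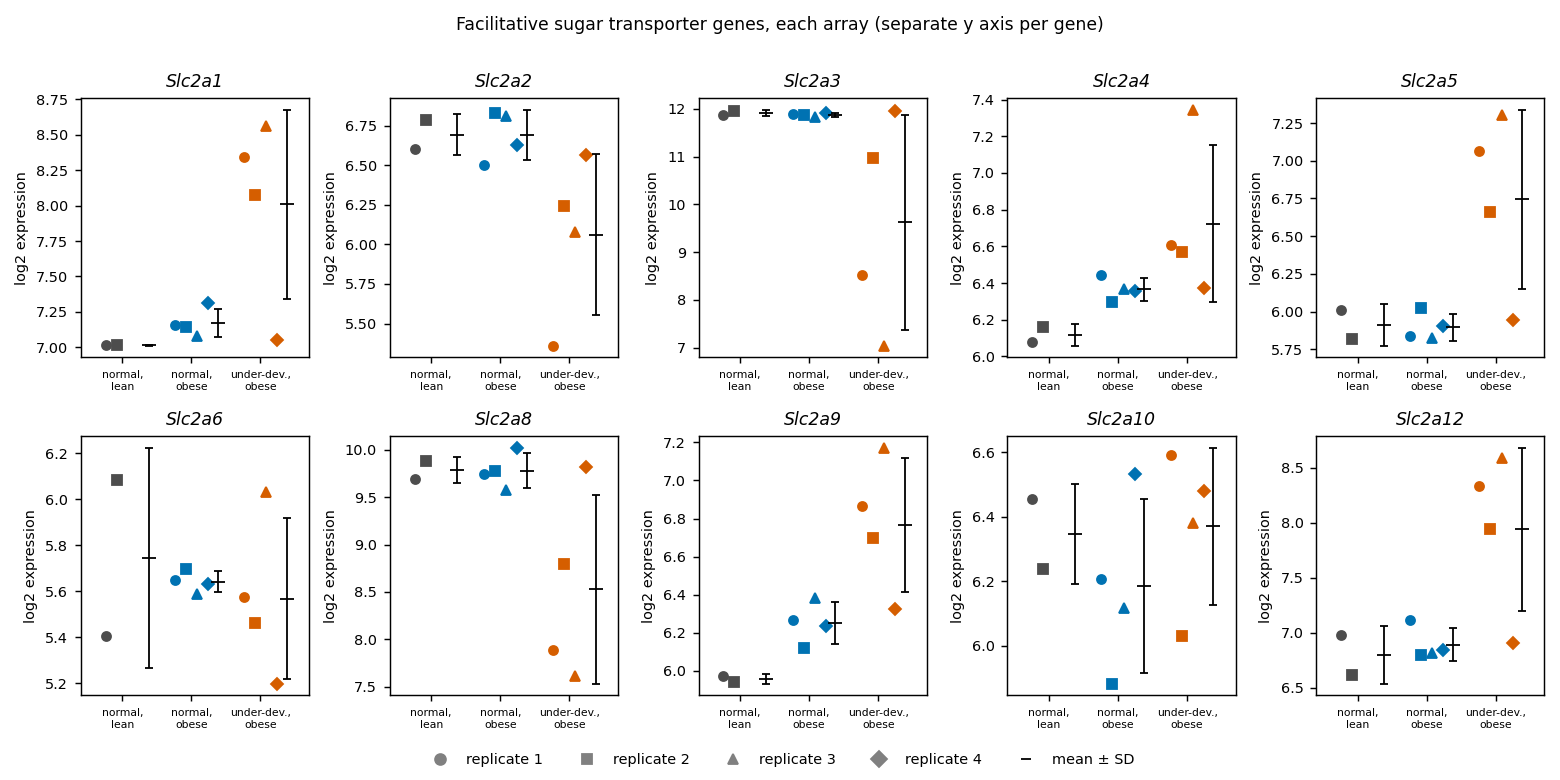
Log2 expression of the 10 transporter genes in every array, with lean and obese normal testes and under-developed testes along the x axis, a separate y axis per gene, marker shapes for the replicate number, and mean ± SD beside the points (n = 2, 4 and 4). Slc2a3 falls to 7.04 in under-developed replicate 3 while all normal arrays sit between 11.82 and 11.96, and the diamond of under-developed replicate 4 stays with the normal arrays in 9 of 10 panels.

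In the fit of all 10 arrays with limma, 0 of the 10 genes passed an adjusted p of 0.05 between under-developed and normal obese testes, as did 0% of all genes. At an unadjusted p of 0.05, 4 of the 10 were higher and 3 lower, where 24.4% and 22.3% of all genes were. All 4 under-developed arrays lay above all 4 normal obese arrays for 0 of the 10 genes, and below for 0, against 7.44% and 10.4% of all genes. Without under-developed replicate 4, limma called 7 of the 10: Slc2a1, Slc2a5, Slc2a9 and Slc2a12 rose, and Slc2a2, Slc2a3 and Slc2a8 fell. With all arrays but weighted by their agreement, limma called 7, 4 higher and 3 lower. Those weights were estimated from these same arrays, so the weighted fit is no second support. The share of all genes called in the weighted fit is not given here. In the fit without replicate 4, 29.6% of all genes rose and 26.4% fell. The 4 that rose did so on the deposited scale, and the sign of each turned when arrays were centred on Sertoli markers. Replicate 4 was singled out after its values were seen, so these calls describe the other 3 arrays and are no independent evidence. In the following, "rose" and "fell" refer to this fit. The median fitted difference of the 10 genes was 0.31 log2 in it, against 0.066 over all genes.

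Slc2a3 differed most. It stood at 11.89, 11.88, 11.82 and 11.92 log2 in the normal obese testes, at 11.87 and 11.96 in the lean testes, and at 8.51, 10.98, 7.04 and 11.96 in under-developed replicates 1 to 4. The 6 normal arrays thus spanned little, replicates 1 to 3 lay below them, and replicate 4 lay among them. Relative to the normal obese mean, the level was 10.3-fold lower in replicate 1, 1.86-fold lower in replicate 2 and 28.5-fold lower in replicate 3. The fitted difference was −2.25 ± 0.92 log2 (SE) with all arrays (limma adjusted p = 0.0901), and −3.03 ± 0.73 without replicate 4 (limma adjusted p = 0.00716). It stayed negative under every scaling of the arrays that was tried.

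Slc2a8 went the same way with a smaller difference. Its levels were 9.74, 9.77, 9.58 and 10.02 in normal obese testes, 9.69 and 9.88 in lean testes, and 7.89, 8.80, 7.62 and 9.81 in under-developed replicates 1 to 4. Here too only replicate 4 was within the normal range. The differences from the normal obese mean were −1.89, −0.98, −2.16 and 0.034, and the fitted difference was −1.25 ± 0.42 (SE) with all arrays (limma adjusted p = 0.0703) and −1.68 ± 0.26 without replicate 4 (limma adjusted p = 7.23e-04). In replicate 2 Slc2a3 and Slc2a8 were lower by about as much, their within-array ratio being 0.084 log2 from that of normal obese testes, where the 6 normal arrays ranged from −0.20 to 0.15. In replicates 1 and 3 Slc2a3 was lower than Slc2a8 by a further 1.47 and 2.67 log2.

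Slc2a2, which encodes the low-affinity glucose transporter of liver and pancreatic beta cells (GLUT2), was lower by less and in another order. It stood at 6.50, 6.83, 6.81 and 6.63 in normal obese testes, 6.60 and 6.79 in lean testes, and 5.36, 6.25, 6.08 and 6.57 in the under-developed replicates. Replicate 1 was the lowest here, whereas replicate 3 was the lowest for Slc2a3 and Slc2a8. The fitted difference was −0.63 ± 0.23 (SE) with all arrays (limma adjusted p = 0.0746) and −0.80 ± 0.21 without replicate 4 (limma adjusted p = 0.00945).

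Spermatocyte and spermatid markers were lower in the same 3 replicates as these 3 genes. Of the spermatocyte markers measured, 9 of 10 fell without replicate 4, and of the spermatid markers 10 of 10. Over all genes, 29.6% rose and 26.4% fell in that fit. In replicates 1 to 3 both list means were lower on the ribosomal and Sertoli scales too. The mean of the spermatid list differed from normal obese testes by −2.78, −0.76, −4.17 and −0.056 log2 in replicates 1 to 4, and that of the spermatocyte list by −2.26, −0.60, −4.24 and −0.024. The mean level of the spermatid list ranged from 12.12 to 12.16 in normal obese, 12.10 to 12.16 in lean and 7.97 to 12.08 in under-developed testes. For the spermatocyte list these ranges were 11.02 to 11.10, 11.04 to 11.07 and 6.83 to 11.04. The order of replicates 3, 1 and 2 in Slc2a3 and Slc2a8 was the order of both lists, whereas Slc2a2 was lowest in replicate 1. Spermatogonia markers did not go this way in the deposited values: of 9 measured, 3 rose and 2 fell without replicate 4. The mean of that list differed by 0.21, 0.091, 0.54 and −0.10 log2 in replicates 1 to 4. On the ribosomal and Sertoli scales, however, the spermatogonia mean was lower in replicates 1 to 3. The part of the germ cell lists in the result was not tested, and in whole testes fewer cells of a type and less RNA per cell cannot be told apart.

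**Figure D2:**
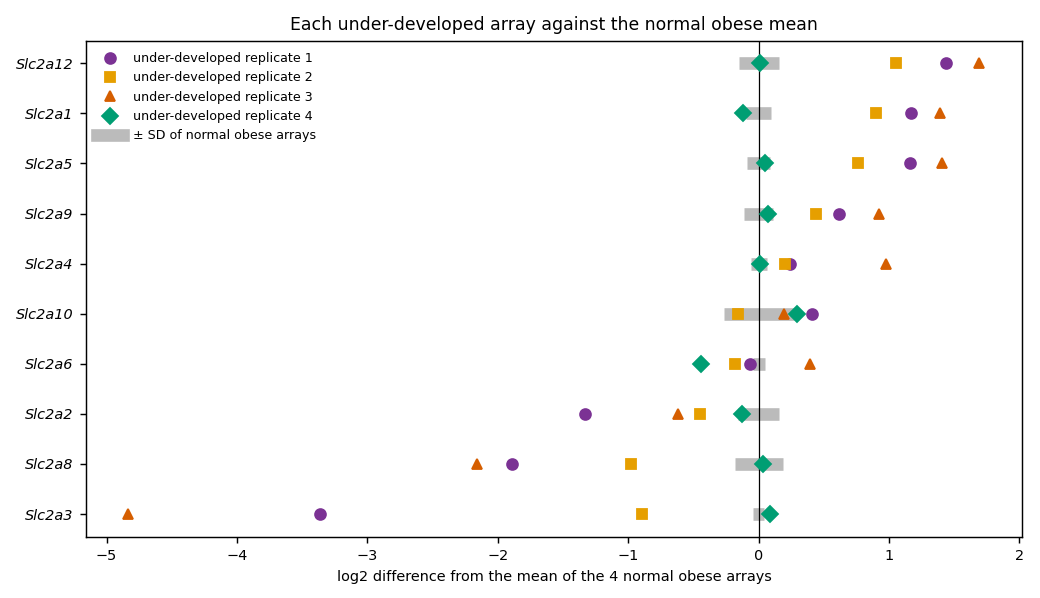
Log2 difference of each under-developed array (x axis; 1 marker per replicate) from the normal obese mean (4 arrays) for the 10 genes (y axis), with grey bars for ± SD of those arrays. Replicates 1 to 3 spread to −4.83 for Slc2a3 and to 1.69 for Slc2a12, while replicate 4 stays between −0.44 and 0.30.

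Slc2a1, Slc2a12 and Slc2a5 all rose in the deposited values, with a sign that turned when arrays were centred on Sertoli markers. Slc2a1 stood at 7.16, 7.15, 7.08 and 7.31 in normal obese testes, at 7.01 and 7.02 in lean testes, and at 8.34, 8.07, 8.57 and 7.05 in under-developed replicates 1 to 4. Replicates 1 to 3 were above every normal array, by 2.25-, 1.87- and 2.62-fold relative to the normal obese mean, and replicate 4 was within their range. The fitted difference was 0.84 ± 0.29 (SE) with all arrays (limma adjusted p = 0.0703) and 1.15 ± 0.13 without replicate 4 (limma adjusted p = 1.71e-04).

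Slc2a12 encodes GLUT12, a transporter of glucose and urate. It stood at 7.12, 6.79, 6.81 and 6.84 in normal obese testes, at 6.98 and 6.61 in lean testes, and at 8.33, 7.94, 8.58 and 6.90 in the under-developed replicates. Its differences of 1.44, 1.05, 1.69 and 0.011 were the highest of the 10 genes in replicates 1 to 3. Without replicate 4 the fitted difference was 1.39 ± 0.17 (SE; limma adjusted p = 2.68e-04), and with all arrays it was 1.05 ± 0.32 (limma adjusted p = 0.0702).

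Slc2a5, the fructose transporter gene, stood at 5.84, 6.02, 5.83 and 5.91 in normal obese testes, at 6.01 and 5.82 in lean testes, and at 7.06, 6.66, 7.31 and 5.95 in the under-developed replicates. The groups separate here as for Slc2a1, with replicate 4 inside the normal range. The fitted difference was 0.85 ± 0.26 (SE) with all arrays (limma adjusted p = 0.0702) and 1.11 ± 0.15 without replicate 4 (limma adjusted p = 4.45e-04).

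These 3 genes differed by similar amounts within each array. The within-array ratio of Slc2a5 to Slc2a1 differed from normal obese testes by −0.0067, −0.14, 0.016 and 0.17 log2 in the under-developed replicates, within the −0.13 to 0.27 of the 6 normal arrays but for replicate 2. That of Slc2a12 to Slc2a1 differed by 0.27, 0.15, 0.30 and 0.13, against −0.19 to 0.25, so replicates 1 and 3 lay just above the normal range. The ratio of Slc2a3 to Slc2a1 differed by −4.53, −1.80, −6.22 and 0.20, where the 6 normal arrays ranged from −0.096 to 0.25. The largest of these is a 74.7-fold lower ratio of the GLUT3 to the GLUT1 gene, in replicate 3. A constant shift of a whole array cancels in such a ratio, as in the 3 centrings tried, but quantile normalization does not.

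Slc2a9, which encodes a urate transporter (GLUT9), rose by less, with a sign that turned when arrays were centred on Sertoli markers or on ribosomal protein genes. Its levels were 6.27, 6.12, 6.38 and 6.24 in normal obese testes, 5.97 and 5.94 in lean testes, and 6.87, 6.70, 7.17 and 6.33 in the under-developed replicates. The fitted difference was 0.51 ± 0.17 (SE) with all arrays (limma adjusted p = 0.0702) and 0.66 ± 0.13 without replicate 4 (limma adjusted p = 0.00243).

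Slc2a4 did not pass in either fit of the deposited values, and its sign turned on the Sertoli and ribosomal scales. It stood at 6.45, 6.30, 6.37 and 6.36 in normal obese testes, 6.08 and 6.16 in lean testes, and 6.61, 6.57, 7.34 and 6.38 in the under-developed replicates. Replicate 3 alone was far above the rest, with a difference of 0.98 against 0.24 and 0.20 in replicates 1 and 2. The fitted difference was 0.36 ± 0.19 (SE; limma adjusted p = 0.169) with all arrays and 0.47 ± 0.18 (limma adjusted p = 0.0515) without replicate 4. Markers of fat and of skeletal muscle, where Slc2a4 is best known, did not rise as lists: 2 of 8 adipocyte markers rose and 3 fell, and 0 of 4 muscle markers rose and 1 fell, without replicate 4. Over all genes, 29.6% rose and 26.4% fell in that fit. The mean of the adipocyte list differed from normal obese testes by −0.16, −0.024, 0.063 and 0.0052 log2 in replicates 1 to 4. That of the muscle list differed by −0.20, −0.21, −0.11 and 0.083. The part of fat or muscle in the Slc2a4 values was not tested.

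Slc2a6 and Slc2a10 did not pass in the deposited values with or without replicate 4. The Slc2a6 protein (GLUT6) is a lysosomal member of the family, and the Slc2a10 protein (GLUT10) is an endomembrane transporter whose loss causes arterial tortuosity in humans. Slc2a6 ranged from 5.59 to 5.70 in normal obese testes and from 5.20 to 6.03 in under-developed testes, and its 2 lean arrays stood far apart, at 5.41 and 6.08. Slc2a10 ranged from 5.88 to 6.53 in normal obese, 6.24 to 6.45 in lean and 6.03 to 6.59 in under-developed testes. Both genes therefore overlapped between all 3 groups. The 95% intervals of the fitted difference with all arrays were −0.52 to 0.37 for Slc2a6 and −0.20 to 0.57 for Slc2a10, which leave room for differences of either sign. Scaling changed these calls: without replicate 4, Slc2a6 differed by −0.70 on the ribosomal scale (limma adjusted p = 0.0034) and by −1.37 on the Sertoli scale (limma adjusted p = 7.9e-05), and Slc2a10 by −0.60 (limma adjusted p = 0.00957) and −1.27 (limma adjusted p = 1.51e-04). With all arrays, Slc2a6 passed on the Sertoli scale, at −1.14 (limma adjusted p = 0.0282). Both scalings lower every gene in under-developed replicates 1 to 3, so these calls are not read as a result about Slc2a6 and Slc2a10. Slc2a6 was the 1 gene of the 10 below the 25th percentile of mean level.

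Markers of somatic cells were higher in the same 3 replicates in which Slc2a1, Slc2a5, Slc2a9 and Slc2a12 rose. Of 13 Sertoli markers measured, 10 rose and 1 fell without replicate 4. In the same fit 5 of 7 Leydig, 6 of 6 endothelial, 3 of 4 peritubular and 10 of 10 macrophage markers rose, and 0 fell in these 4 lists. Over all genes, 29.6% rose and 26.4% fell in that fit. The mean of the Sertoli list differed from normal obese testes by 1.47, 1.12, 1.66 and 0.0083 log2 in replicates 1 to 4, and that of the endothelial list by 1.15, 0.82, 1.40 and −0.013. The mean level of the Sertoli list was 8.20 to 8.35 in normal obese, 8.16 to 8.29 in lean and 8.28 to 9.93 in under-developed testes. For the endothelial list it was 6.16 to 6.32, 6.17 to 6.27 and 6.23 to 7.64. On the scale of ribosomal protein genes the means of all 5 lists stayed higher in replicates 1 to 3. On that of Sertoli markers the endothelial and Leydig means were lower in these replicates and the peritubular mean was lower in replicates 1 and 2. The macrophage mean stayed higher on the Sertoli scale in replicates 1 to 3. Macrophage markers had a mean level of 6.81 to 7.30 in normal obese, 6.71 to 7.01 in lean and 6.99 to 9.52 in under-developed testes. In the deposited values their mean differed from normal obese testes by 2.45, 1.49, 2.32 and −0.078 log2 in replicates 1 to 4. Which of these cells carried the transporter transcripts cannot be read from whole testes, and the part of these lists in the result was not tested. Only 3 of 8 red cell markers were measured, of which 0 rose and 1 fell without replicate 4. Their mean level was low, at 4.91 to 5.13 in normal obese testes. It differed from normal obese testes by −0.33, −0.062, −0.28 and 0.045 log2 in replicates 1 to 4, and the part of blood was not tested.

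The direction of the risen genes depended on what the arrays were scaled to. Centring each array on 52 ribosomal protein genes moved all genes down by 0.87, 0.52 and 0.85 log2 in the under-developed arrays 1 to 3, and centring on the 13 Sertoli markers by 1.47, 1.12 and 1.66. Relative to the Sertoli markers, the under-developed replicates 1 to 4 differed by −0.032, −0.071, 0.036 and 0.0029 log2 in Slc2a12, by −0.30, −0.22, −0.27 and −0.13 in Slc2a1, and by −0.31, −0.36, −0.25 and 0.040 in Slc2a5. Without replicate 4, Slc2a12 did not pass on this scale (limma adjusted p = 0.865), whereas Slc2a1 (limma adjusted p = 0.0451) and Slc2a5 (limma adjusted p = 0.0115) were lower. Slc2a9 and Slc2a4 lay further below that list, at −0.86, −0.68 and −0.74 and at −1.23, −0.92 and −0.68 in replicates 1 to 3. Without replicate 4, 9 of the 10 genes were called on the Sertoli scale, all downward, and 8 on the ribosomal scale, 3 upward and 5 downward. Both scalings lower every gene in replicates 1 to 3, and the share of all genes called on them is not given here. These counts can therefore not be read as particular to the transporters. Slc2a3, Slc2a8 and Slc2a2 fell under each of these scalings.

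**Figure D3:**
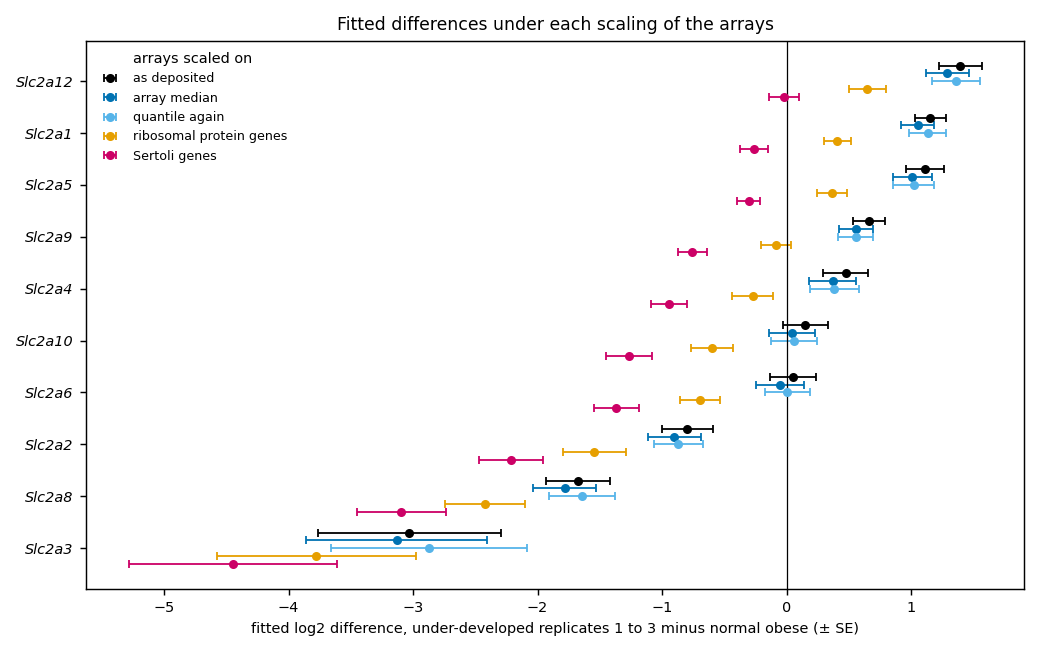
Fitted log2 difference of under-developed replicates 1 to 3 from the normal obese testes (x axis, ± SE from limma) for the 10 genes (y axis), with colours for the deposited values and 4 other scalings of the arrays. Slc2a3 lies between −4.45 and −2.87 in all of them, whereas Slc2a12 moves from 1.39 as deposited to −0.022 with arrays centred on Sertoli markers.

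Normal testes of obese rats were set against those of lean rats to ask whether obesity without under-development goes with other levels of these genes. In limma 0 of the 10 genes passed, as did 0% of all genes, and 0 of the 10 had an unadjusted p under 0.05, where 0.44% of all genes did. The largest fitted difference was that of Slc2a9, 0.29 ± 0.21 (SE) higher in obese rats, followed by Slc2a4 (0.25 ± 0.24), Slc2a10 (−0.16 ± 0.21) and Slc2a1 (0.16 ± 0.35). For Slc2a9, Slc2a4 and Slc2a1 all 4 obese arrays lay above both lean arrays, which held for 7.7% of all genes, and each had a limma adjusted p of 1 with all arrays. When only these 6 arrays were fitted, which leaves out the spread of the under-developed arrays, their limma adjusted p was 0.744, 0.744 and 0.782. Slc2a3 differed by −0.043 ± 1.13 (SE), an error set by the under-developed arrays in the shared fit, while its 6 normal values differed by at most 0.14 log2. The insulin-regulated Slc2a4 had a 95% interval of −0.28 to 0.78, so differences of that size are not excluded by these arrays.

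Other genes of sugar handling were followed in 4 lists, of which 41 of 48 genes were measured. With all arrays 0 of the 41 passed in limma, while 21 were higher and 6 lower at an unadjusted p of 0.05, where 24.4% and 22.3% of all genes were. Without replicate 4, 21 rose and 9 fell, and 29.6% and 26.4% of all genes did. These shares are the background for each list below. On the scale of ribosomal protein genes this split was 12 and 20, and on that of Sertoli markers 4 and 30, so the directions below hold for the deposited values. The share of all genes called on these scales is not given here. In the deposited values without replicate 4, the median fitted difference of the 41 genes was 0.48 log2, against 0.066 over all genes.

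Coupled transporters can move a solute against its gradient. Of 10 sodium- or proton-coupled sugar transporters and related carriers, not all of them coupled or carrying sugar, 2 rose and 3 fell without replicate 4. Slc50a1, a sugar exporter of another fold, differed by 1.60, 0.95, 1.90 and 0.087 log2 in the 4 under-developed arrays. Slc5a10 differed by −0.54, −0.77, −0.57 and −0.31, and Slc45a1 by −0.83, −0.42, −0.36 and −0.076. Slc5a3, the myo-inositol transporter gene, differed by 0.42, 0.49, 0.52 and 0.19. The list had a median fitted difference of −0.15 without replicate 4, over members that differed in both directions.

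Hexose phosphorylation and the polyol pathway, which turns glucose into fructose by way of sorbitol, had 7 of 13 genes measured, of which 4 rose and 2 fell without replicate 4. The pathway's enzymes went opposite ways. Akr1b1, the aldose reductase gene of its first step, differed by 2.34, 1.66, 2.21 and −0.11, and Sord, the sorbitol dehydrogenase gene of its second step, by −1.96, −0.94, −2.33 and −0.10. Khk, the fructokinase gene, differed by 1.50, 0.98, 2.05 and 0.19. G6pc3, which encodes a ubiquitous glucose-6-phosphatase, differed by −2.39, −1.69, −3.56 and 0.0099.

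Lactate formation and export had 10 genes measured, of which 4 rose and 2 fell without replicate 4. Ldhal6b, a lactate dehydrogenase-like gene of the testis, differed by −1.86, −0.54, −4.85 and −0.051, and Slc16a7, which encodes the lactate and pyruvate transporter MCT2, by −1.18, −0.64, −3.40 and 0.10. Both fell without replicate 4 (limma adjusted p = 0.0318 and 0.0227). The germ cell isoenzyme gene Ldhc differed by −1.50, −0.26, −4.58 and −0.036 and missed the threshold (limma adjusted p = 0.0545). Ldhb differed by 1.86, 1.43, 1.92 and 0.052 and rose. The monocarboxylate transporter gene Slc16a1 and the list genes Emb and Ldha rose too, with fitted differences of 1.17, 1.03 and 0.91 without replicate 4. Their limma adjusted p was 1.67e-04, 0.0012 and 0.00202. The monocarboxylate transporter genes Slc16a3 and Slc16a8 and their partner gene Bsg did not pass, with fitted differences of 0.026, 0.059 and −0.042. Slc16a1, Emb, Ldha, Slc16a3, Slc16a8 and Bsg fall outside the naming rule and were added after their values were seen.

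Genes for trafficking and turnover of glucose transporters had 14 of 15 members measured, of which 11 rose and 2 fell without replicate 4. Txnip, whose product promotes the removal of GLUT1 from the cell surface, differed by 2.42, 1.96, 2.75 and −0.29, and its relative Arrdc4 by 1.49, 0.91, 1.90 and −0.13. Rhoq, a small GTPase gene of insulin-stimulated GLUT4 transport, differed by 2.67, 1.72, 2.84 and −0.21, and Insr, the insulin receptor gene, by 1.57, 1.40, 2.48 and −0.076. Tbc1d1, a Rab GTPase-activating protein gene that acts on GLUT4 storage vesicles, differed by −1.82, −0.99, −2.52 and −0.020. Arrdc4 falls outside the naming rule and was added after its values were seen.

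**Figure D4:**
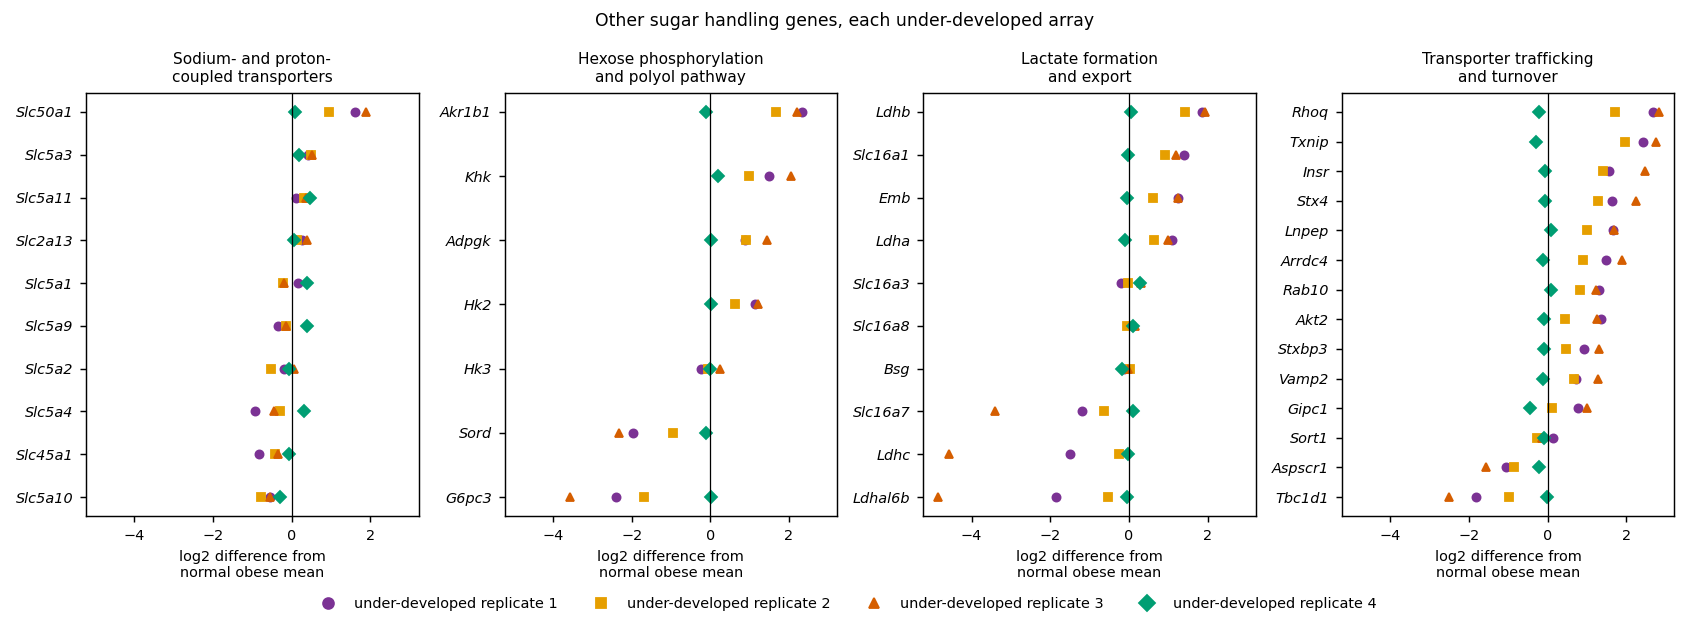
Log2 difference of each under-developed array (x axis; 1 marker per replicate) from the normal obese mean (4 arrays) for the 41 measured genes (y axis) of the 4 sugar handling lists, 1 panel per list. Replicate 4 lies between −0.45 (Gipc1) and 0.45 (Slc5a11), and replicates 1 to 3 reach 2.84 for Rhoq and −4.85 for Ldhal6b.

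The genes most like each transporter in pattern were found among all named genes by the mean absolute difference between their log2 differences from the normal obese mean over the 10 arrays. This was done for the 8 transporters that ranged over more than 1 log2, and the 3 nearest genes of each are given as a description. Nearest to Slc2a3 were Ccdc169, Spata18 and Kif2c, at mean absolute differences of 0.079 to 0.096 log2. Kif2c differed by −3.30, −1.31, −4.67 and −0.048 in the 4 under-developed arrays, where Slc2a3 differed by −3.36, −0.90, −4.83 and 0.084. Nearest to Slc2a8 were Ipo13, Epha3 and Tkfc (0.052 to 0.077), and nearest to Slc2a2 were Pex11g, Morn1 and Dcun1d3 (0.087 to 0.098). Tkfc encodes triokinase, which acts on the breakdown products of fructose, and it differed by −1.94, −0.95, −2.30 and 0.036.

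Among the transporters that were higher, nearest to Slc2a1 were Cuta, C18h18orf21 and the ribosomal protein gene Rps14 (0.060 to 0.063), and nearest to Slc2a12 were Rap2b, Ppp2r1a and Sptbn1 (0.059 to 0.069). Mknk1, Steap4 and Epb41l2 were nearest to Slc2a5 (0.054 to 0.058), Tubgcp5, Lrrc40 and Rftn1 to Slc2a9 (0.084 to 0.085), and Btbd2, Cbr3 and Mri1 to Slc2a4 (0.075 to 0.080). Rps14 differed by 1.16, 0.90, 1.28 and −0.13 in under-developed replicates 1 to 4, against 1.17, 0.90, 1.39 and −0.12 for Slc2a1.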

How the data were processed

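Total RNA of rat testes was extracted with Trizol and biotin-labelled for Affymetrix arrays, per the labels' protocols. The authors deposited log2 expression values for 36685 probe sets, and the submitters' processing notes name RMA, which subtracts background, brings arrays to 1 distribution and combines the probes of a set. Its software, version and settings are not given in the sources used here. Because normalization assumes similar arrays, a change in a tissue's make-up shifts genes relative to each other. No scan date or slide was used here.

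Of the probe sets, 18511 carried 1 gene symbol, updated through gene numbers to RefSeq (GRCr8). The probe set with the highest mean was kept per gene, leaving 18166 genes, unfiltered. Sample titles gave the groups. For the tests, limma 3.58.1 (R 4.3.3, functions lmFit and eBayes) fitted a mean for each group to the 10 arrays together, two-sided, with Benjamini-Hochberg adjustment over all genes and a threshold of 0.05. The fit was tested on simulated data with the spread of the normal arrays and an equal change in all under-developed arrays. The real under-developed arrays were not alike, so that test does not show how the fit performs on them. Alternatives were 4 scalings, an offset of 50, a filter at the 25th percentile, other treatment of probe sets, moderation settings, array weights, a fit of only 2 groups, a replicate block and leaving out each array. Same-numbered normal and under-developed obese arrays did not deviate together (correlations over genes of 0.0069 to 0.26), so the numbers were not taken as pairs.

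The members and gene lists were chosen with earlier results of these data known. The naming rule took all 10 members, up to 4 genes per sugar handling list with the largest fitted difference, the 3 genes most alike in pattern to each member ranging over more than 1 log2, and markers given beside a result. Lists were described by counts and medians, without set tests.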

Additional observations from a re-analysis of the deposited data

Results flagged for a closer look

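Each of the 10 genes was examined for a lone high or low array in the normal obese and the under-developed group, by Dixon's ratio of the gap to the whole range at its 95% critical value. Of 20 groups of values, 1 had such an array, which is what chance gives at 1 in 20. It was Slc2a12 in normal obese replicate 1, at 7.12 log2, where the other 3 normal obese arrays lay between 6.79 and 6.84.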

How the results depend on the processing

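Between under-developed and normal obese testes, the count of transporter genes called was 0 with all arrays, and from 0 to 7 when each array was left out in turn, the 7 being without under-developed replicate 4. It was 7 with array weights and 5, all lower, with arrays centred on the Sertoli markers. With replicate 4 left out and arrays rescaled, choices made after the data were seen, it was 7 with the array median, 7 with quantile normalization, 8 with ribosomal protein genes and 9 with Sertoli markers. The count of sugar handling genes called was 0 with all arrays, 0 to 30 in the leave-one-out fits (30 without replicate 4), 31 with array weights and 20, all lower, on the Sertoli scale. Rescaled without replicate 4 it was 31 (median), 29 (quantile), 32 (ribosomal, 12 higher and 20 lower) and 34 (Sertoli, 4 higher and 30 lower). The share of all genes called is not given for the array weights or the rescaled arrays, so those counts have no background here. Under the other alternatives both counts stayed 0, and the count for obese against lean normal testes was 0 under all. Slc2a6 had no value under the filter on dim genes.

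The sign of some fitted differences turned. Centred on Sertoli markers, the log2 difference of under-developed minus normal obese testes was −0.23 for Slc2a1, −0.71 for Slc2a4, −0.22 for Slc2a5, −0.55 for Slc2a9, −0.88 for Slc2a10 and −0.016 for Slc2a12. Without replicate 4 these were −0.26, −0.94, −0.31, −0.76, −1.27 and −0.022. Centred on ribosomal protein genes they were −0.17 for Slc2a4, −0.015 for Slc2a9 and −0.34 for Slc2a10, and without replicate 4 they were −0.27, −0.087 and −0.60. Slc2a6 ranged from −0.23 to 0.050 in the leave-one-out fits and was 0.0045 with quantile normalization without replicate 4.

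Normal obese minus normal lean differences near 0 turned as well. Slc2a2 was −0.015 with median centring, −0.0080 with quantile normalization, −0.10 on the ribosomal and −0.046 on the Sertoli scale. Slc2a5 was 0.0050 with quantile normalization, and Slc2a12 was −0.010 on the ribosomal scale. With each array left out, Slc2a2 ranged from −0.091 to 0.093, Slc2a3 from −0.088 to 0.0028, Slc2a5 from −0.11 to 0.081, Slc2a6 from −0.44 to 0.24, Slc2a8 from −0.11 to 0.088 and Slc2a12 from −0.089 to 0.28. With the replicate block, Slc2a2 was −0.14, Slc2a3 0.022 and Slc2a5 0.059. The replicate block changed no call, and 1 of 4 normal obese arrays correlated best with the under-developed array of its own number. Apart from the scaling, the cause of these turns was not tested.

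The arrays carry no measure of background, so low levels such as those of Slc2a6 have no detection limit here.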

Other observations

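The arrays held 2 more genes of the family. Slc2a13, which encodes a proton-coupled myo-inositol transporter and was counted among the coupled transporters, differed from the normal obese mean by 0.25, 0.13, 0.39 and 0.045 log2 in the 4 under-developed arrays, with a limma adjusted p of 0.208 with all arrays and 0.0987 without replicate 4. Slc2a7, an intestinal member of the family, differed by −0.027, −0.061, 0.027 and 0.18, and its fitted difference without replicate 4 was −0.020 (limma adjusted p = 0.873).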
